A study of Drosophila melanogaster with 4 samples.

Results

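The regions described here are H3K79me2 clusters between 3 kb and just under 10 kb wide on chromosome arms 2L, 3L and 3R of Drosophila melanogaster that had another enriched cluster fewer than 20 kb away on at least one side. The list for the whole series held 5971 enriched clusters, 3628 of them on these 3 arms, and 1322 met these limits. They were chosen by position, width and spacing in that list, so those values are given as a description and carry no test. Chromatin came from wild-type larvae of the third instar of the Oregon-R strain, with the full strain name Oregon-R-modENCODE. No treatment, mutation or transgene is named in the labels, and no sex is given. The antibody was a rabbit polyclonal against H3K79me2 from Abcam. Of the 4 samples, 2 were ChIP replicates and 2 were input DNA, and each ChIP replicate had its own list of clusters. Whole larvae hold many tissues, so a cluster may come from all of them or from a few. The inputs were not analysed here, and the clusters thus have no background level beside them. The lists hold no read counts, so the depth behind each cluster is unknown.

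Dimethylation of lysine 79 lies on the face of the nucleosome rather than on a histone tail, and in flies it is placed by grappa, the homologue of Dot1. It is known as a mark of the first part of the body of transcribed genes. Active genes of the fly genome, housekeeping genes above all, are known to stand close together in groups, with longer stretches of silent or tissue-specific genes between the groups. Transcription was not measured here, so the clusters are called neighboured, by their spacing, and not active. No gene annotation of the files' release was used, so the clusters were not matched to genes, and "gene-sized" refers to width only. Positions are on FlyBase release 5.

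Gene-sized neighboured clusters made up 36.4% of the enriched clusters of the 3 arms and 33.9% of their summed width, or 7.35 Mb and 9.74% of the length of the arms. Arm 2L held 368 of them, 3L held 455 and 3R held 499, which was 16.0, 18.5 and 17.9 per Mb. Nearly every cluster of this width had a neighbour, since 1368 clusters had the width and only 46 had none within 20 kb. The share with a neighbour was 96.6%, beside 95.5% of narrower clusters (1599 of 1674) and 98.1% of clusters of 10 kb and over (575 of 586). The limit on distance therefore removed few clusters, and having a neighbour was common to clusters of all widths. The limits themselves fell within a continuous range of values. The narrowest of the regions, on 2L from 22121214 to 22124214, was 3001 bp wide and the widest, on 3L from 19584494 to 19594482, was 9989 bp. Just outside lay a neighboured cluster of 2999 bp on 3R from 17998210 to 18001208 and one of 10005 bp on 2L from 18327558 to 18337562. By distance, the last inside was on 3R from 15881612 to 15884820 with a neighbour 19355 bp away, and the first outside was on 2L from 12973778 to 12978336 with 20971 bp. Within 100 bp of the width limits stood 29 regions at the lower end and 6 at the upper.

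Their widths leaned to the lower end and differed little between the arms. The median was 5186 bp on 2L, 5123 bp on 3L and 5229 bp on 3R, and 5177 bp over all. There were 353 regions from 3 to under 4 kb, and the number fell with each further kb to 85 from 9 to under 10 kb. The authors' score, a signed number whose scale the sources used here do not give and which was read only within a list, had a median of 0.92 in the regions, with quartiles of 0.60 and 1.31. All enriched clusters of the same arms had a median of 0.60. In rank, the median region stood above or level with 63.9% of the whole-series list. Score rose with width among the regions, with a Spearman correlation of 0.37 over 1322 clusters of 1 list, given as a description.

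Most gene-sized clusters lay within 1 kb of another cluster. The median distance to the nearest neighbour was 741 bp, with quartiles of 259.5 and 2180 bp. By arm the median was 690 bp on 2L, 889 bp on 3L and 681 bp on 3R. The nearest neighbour was under 500 bp away in 525 regions (39.7%) and under 1 kb away in 764 (57.8%), and only 63 (4.77%) had it at 10 kb or more. Neighbours stood on both sides of 933 regions (70.6%, Wilson 95% interval 68.1 to 73.0), and 389 had a neighbour on a single side, so that they lay at the edge of a group. The share with neighbours on both sides was 70.7% on 2L, 70.8% on 3L and 70.3% on 3R. The same share over all clusters of the arms was not computed, so these values do not set the regions apart from clusters of other widths. Width and score differed little between these classes, with median widths of 5203 bp with neighbours on both sides and 5129 bp on a single side, and median scores of 0.91 and 0.93. Across the 1322 regions, the distance to the nearest neighbour had a Spearman correlation of -0.01 with width and of 0.08 with score, both of which come from the same list. Both correlations were near 0.

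**Figure D1:**
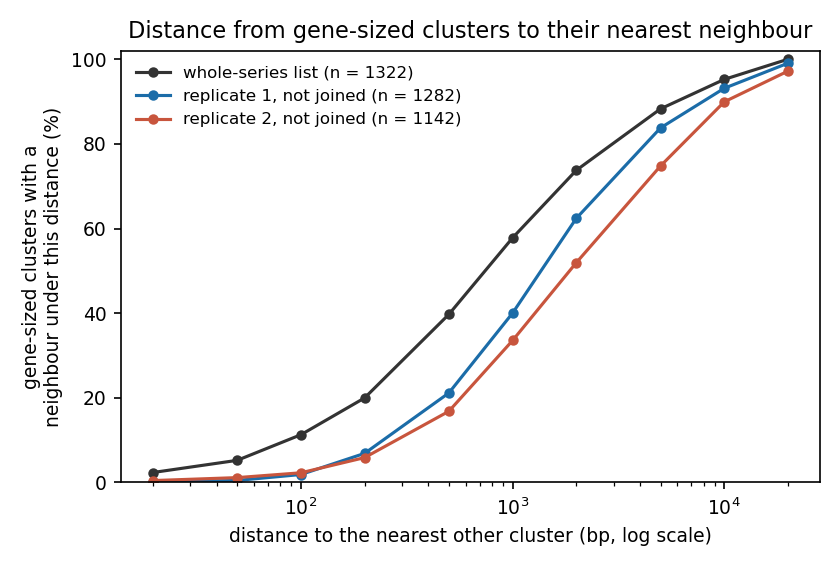
Share of gene-sized clusters (y, percent) whose nearest other cluster lay under a given distance (x, bp, log scale), in the whole-series list and, outward from the matching clusters, in the lists of replicate 1 and replicate 2, where regions whose cluster ran on into a neighbour are left out (1282 and 1142 regions remain of 1322). At 1000 bp the whole-series list had reached 57.8%, replicate 1 40.0% and replicate 2 33.5%. At 20000 bp the whole-series list was at 100% by the limit that chose the regions, replicate 1 at 99.1% and replicate 2 at 97.2%.

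The neighbours had nearly the same mix of widths as all clusters of the arms. Neighbours were counted from each region, so adjoining gene-sized regions count each other. Of these 2255 neighbours under 20 kb, 44.5% were narrower than 3 kb, 37.2% were gene-sized and 18.4% were 10 kb or wider. Over all clusters of the arms these widths made up 46.1%, 37.7% and 16.2%. At least 1 narrow neighbour stood beside 807 regions, a gene-sized one beside 713 and a broad one beside 380. The median distance was 1875 bp to narrow neighbours, 1221 bp to gene-sized ones and 1135 bp to broad ones. For 361 regions (27.3%) all neighbours within 20 kb were narrow, and narrow clusters had the lowest support in the replicates, given further on. A region and its neighbour shared little of their score, with a Spearman correlation of 0.15 over the 2255 entries. In these entries, a pair of gene-sized regions stands in both orders.

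Joined at gaps under 20 kb, the clusters formed runs, and the gene-sized regions fell into 426 of them. A run with a region in it held a median of 6 clusters of any width, with quartiles of 3 and 10, and spanned a median of 49.9 kb, of which a median of 68.4% was inside clusters. Together these runs spanned 30.2 Mb, or 40.0% of the 3 arms, by arm 35.9% of 2L, 41.3% of 3L and 42.2% of 3R. A single gene-sized region was present in 119 runs, while 84 runs held 5 or more and together took in 593 regions (44.9%). The 12 runs with 10 or more regions took in 159 (12.0%). Runs mixed the widths, since 260 of the 426 also held a broad cluster and 20 were made of gene-sized regions alone. Of the 307 runs with 2 or more gene-sized regions, 80 had none directly beside another, and in 77 runs at least 3 followed each other.

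The run with the most gene-sized regions spanned 497 kb on 3R, 437 kb on 2L and 230 kb on 3L. On 2L the run with the most regions, from 7877652 to 8314452, held 39 clusters, of which 17 were gene-sized, 15 narrow and 7 broad. A second run of 2L also held 17 regions, over a shorter span. Clusters covered 74.2% of the first run in the whole-series list, 69.0% in replicate 1 and 65.1% in replicate 2. All 17 of its regions were found in replicate 1 and 15 in replicate 2. On 3L the run from 7963180 to 8192682 held 15 regions, 9 narrow and 5 broad clusters. Replicate 1 clusters covered 58.6% of it and replicate 2 clusters 64.5%, and all 15 regions were in both. On 3R the run from 19687142 to 20184282 held 17 regions, 16 narrow and 11 broad clusters. Replicate 1 clusters covered 69.1% of it and replicate 2 clusters 61.1%, and all 17 regions were in both. The runs of 2L and 3R were covered more in replicate 1 and that of 3L more in replicate 2. Within these runs the median gap between clusters was 1318 bp on 2L, 758 bp on 3L and 1697 bp on 3R. Scores within a run were wide apart, for example from 0.37 to 2.02 among the 17 regions of the run on 3R.

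Series of gene-sized clusters without another width between them held at most 6 regions. The longest such series, picked out after the values were seen, had 6 regions on 2L, from 9952378 to 10012290. On 3L 2 series had 6 regions, from 16330444 to 16405218 and from 20774274 to 20827576. On 3R 3 series had 5, from 1044678 to 1094300, from 14976092 to 15011158 and from 20374932 to 20411460. The gaps inside them ran from 475 to 14825 bp on 2L, 1343 to 15355 bp on 3L and 171 to 7505 bp on 3R. Each region of these series was found in both replicates. Gene-sized clusters made up 37.7% of all clusters of the arms, and the length of series that this mix alone would give was not computed.

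**Figure D2:**
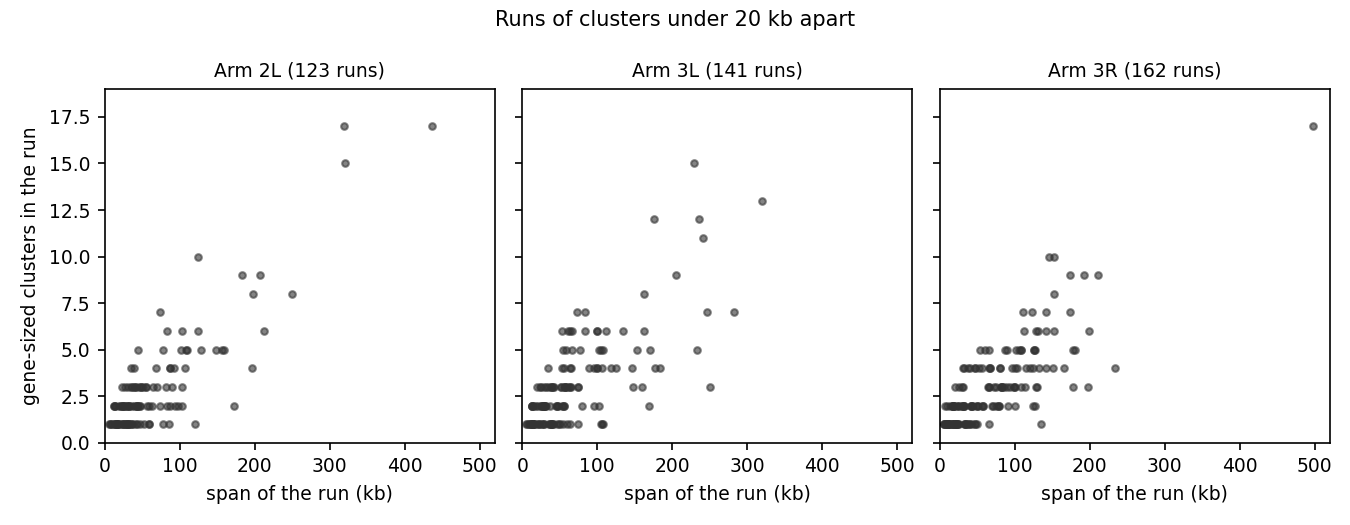
Each point is a run of clusters under 20 kb apart that held at least 1 gene-sized region, by its span (x, kb) and the number of gene-sized regions in it (y), for arms 2L, 3L and 3R. The median run spanned 49.9 kb and held 2 regions, and the run on 3R with 17 regions stood alone at 497 kb.

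The regions were spread over nearly all of the 3 arms, with crowded and thin stretches. Over 74 full windows of 1 Mb the number of regions had a median of 17.5, quartiles of 14 and 21.75, and a range from 0 to 37. The 18 of 74 windows with the most held 456 of 1308 regions, or 34.9% (Wilson 95% interval 32.3 to 37.5, counting error only). These windows were picked for their counts, so their share is raised by the choice, which the interval leaves out. The share under random placement was not computed. On 3L the fullest window, from 8000001 to 9000000, held 37 regions among 82 clusters, which together covered 49.2% of it. On 2L the fullest, at the same coordinates, held 28 regions among 66 clusters, and on 3R the fullest, from 4000001 to 5000000, held 28 among 64. The emptiest window of 3L, from 23000001 to 24000000, held no region and 2 narrow clusters. That of 2L, from 22000001 to 23000000, held 3 regions, and that of 3R, from 13000001 to 14000000, held 8. Those of 3L and 2L lie at the centromere end of their arms, and that of 3R does not.

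The same limits applied to each replicate list gave a similar profile of crowded and thin windows. Replicate 1 had 1515 such clusters and replicate 2 had 1181, from 3747 and 2872 enriched clusters on the 3 arms, or 40.4% and 41.1%. In the fullest window of 3L there were 44 in replicate 1 and 27 in replicate 2. In that of 2L there were 40 and 21, and in that of 3R 36 and 27. Both replicates had none in the emptiest window of 3L. In the emptiest window of 2L there were 3 and 0, and in that of 3R 6 and 8. Replicate 1 was thus the higher in each of the 3 fullest windows. Across the 74 windows the number in replicate 1 and in replicate 2 had a Spearman correlation of 0.82, a description of lists made with the same antibody on the same genome.

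Each arm was also divided into 10 segments of equal length, numbered from the centromere, and density was lowest in segment 1 on 3L and not on 2L or 3R. On 3L it was 6.52 per Mb in segment 1 and 24.4 in segment 2 in the whole-series list, 6.11 and 29.3 in replicate 1, and 6.11 and 22.0 in replicate 2. On 2L the lowest was segment 4, at 9.56 per Mb, with 8.69 in replicate 1 and 7.82 in replicate 2. On 3R segment 1 held 19.7 per Mb, within the range of the other segments, from 14.0 to 21.5. The highest was segment 7 of 3L, at 29.7 per Mb, with 33.8 in replicate 1 and 22.0 in replicate 2. Over the 3 arms segment 1 held 13.0 per Mb against 18.0 in the other segments. In replicate 1 it was 13.6 against 20.8 and in replicate 2 11.8 against 16.1. The low density of segment 1 on 3L was shared with all enriched clusters, 43 there and 142 in segment 2. In segment 1 the regions made up 37.5% of clusters on 2L, 37.2% on 3L and 44.0% on 3R, beside 36.4% over the whole arms. Across the 1 Mb windows, regions and all clusters, which include them, had a Spearman correlation of 0.75. With 2 replicates no exact test within replicates can give a two-sided p below 0.5.

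**Figure D3:**
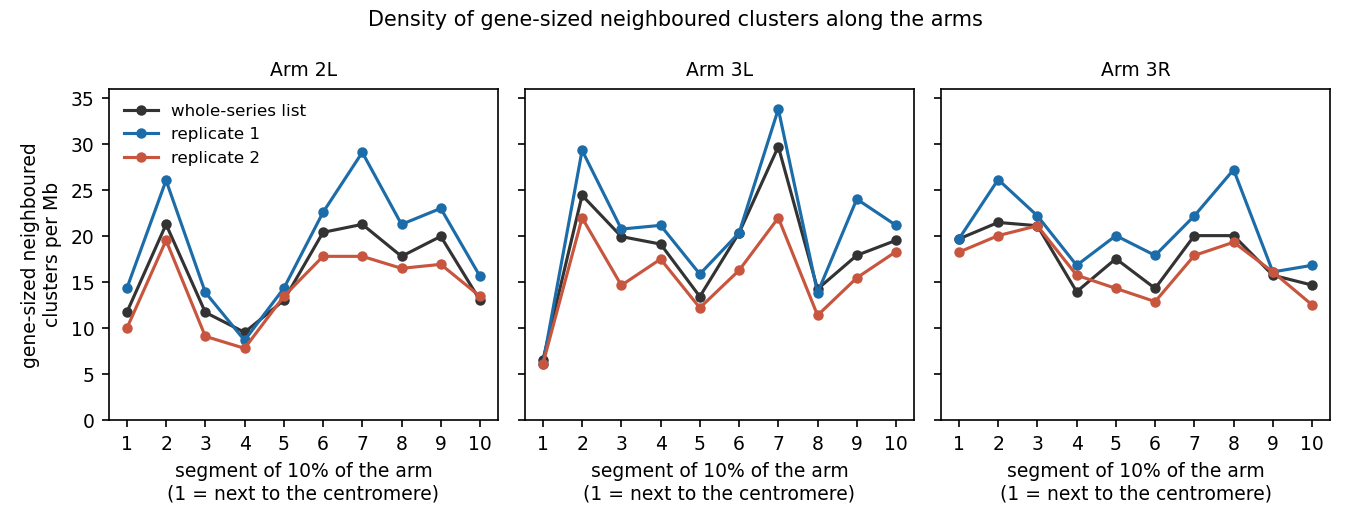
Number of gene-sized neighboured clusters per Mb (y) in 10 segments of equal length of arms 2L, 3L and 3R, numbered from the centromere (x), by the same limits in the whole-series list and each replicate list. On 3L the whole-series list rises from 6.52 per Mb in segment 1 to 24.4 in segment 2, and both replicates rise with it. All enriched clusters of the whole-series list rise there too, from 43 to 142.

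Almost every gene-sized region was found in the replicates. At least 1 base was covered in 1313 of 1322 regions in replicate 1 (99.3%, Wilson 95% interval 98.7 to 99.6) and in 1287 in replicate 2 (97.4%, 96.3 to 98.1). The mean share was 98.3% ± 1.39 (SD, n = 2). Of all 5971 clusters of the whole-series list, 86.3% were found in replicate 1 and 74.9% in replicate 2. Both replicates had 1279 of the regions (96.7%, 95.6 to 97.6), beside 71.0% of all clusters. The whole-series list may have been made from these same libraries, so the support is no independent evidence of a region. Replicate 1 alone had 34 regions, with a median width of 3408 bp, and replicate 2 alone had 8, with a median of 3233 bp. A single region was in neither, beside 9.81% of all clusters. It lay on 3R from 26719190 to 26723796, was 4607 bp wide with a score of 0.24, and the nearest clusters were 3692 bp away in replicate 1 and 3643 bp in replicate 2.

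Most bases of the regions were covered in each replicate, but unevenly between regions. The clusters of replicate 1 covered 91.2% of the bases of the regions and those of replicate 2 covered 86.8%, or 89.0% ± 3.08 (SD, n = 2). Over all 5971 clusters of the whole-series list it was 90.6% and 85.2%, so this measure hardly set the regions apart. In the median region 98.0% of the length was covered in replicate 1 and 93.7% in replicate 2, with lower quartiles of 88.2% and 81.5% and 5th percentiles of 54.0% and 43.2%. Among the 331 regions with the lowest whole-series scores, 75.8% of the bases were covered in replicate 1 and 70.1% in replicate 2. At least 50% of the length was covered in 1277 regions in replicate 1 (96.6%) and 1229 in replicate 2 (93.0%), beside 85.0% and 72.4% of all clusters. The whole length was covered in 157 regions in replicate 1 (11.9%) and 96 in replicate 2 (7.26%), beside 15.0% and 6.41% of all clusters. By this measure the regions were below all clusters in replicate 1 and slightly above them in replicate 2. By arm, the share of bases covered was 90.2% and 86.5% on 2L, 90.3% and 86.7% on 3L, and 92.7% and 87.2% on 3R, in replicates 1 and 2. The arms thus differed by less than the replicates did. On X, 467 clusters met the same limits and were found at 99.4% and 97.6%, and on 2R 436 did, at 100% and 98.2%.

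The regions missed in a replicate were mostly narrow and all low in score. From 3 to under 4 kb, 345 of 353 were found in replicate 1 (97.7%) and 332 in replicate 2 (94.1%). From 5 to under 6 kb it was 218 of 218 and 212 of 218 (97.2%), and all 85 regions of 9 kb and over were found in both. By score, all 9 regions missed in replicate 1 and all 35 missed in replicate 2 were in the lowest quartile of the 1322. In that quartile 97.3% were found in replicate 1 and 89.4% in replicate 2. Replicate 2, the list with fewer clusters, was the lower in each width class where not all were found. Regions with neighbours on both sides were found at 99.0% in replicate 1 and 96.8% in replicate 2, and those with a neighbour on a single side at 100% and 98.7%.

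**Figure D4:**
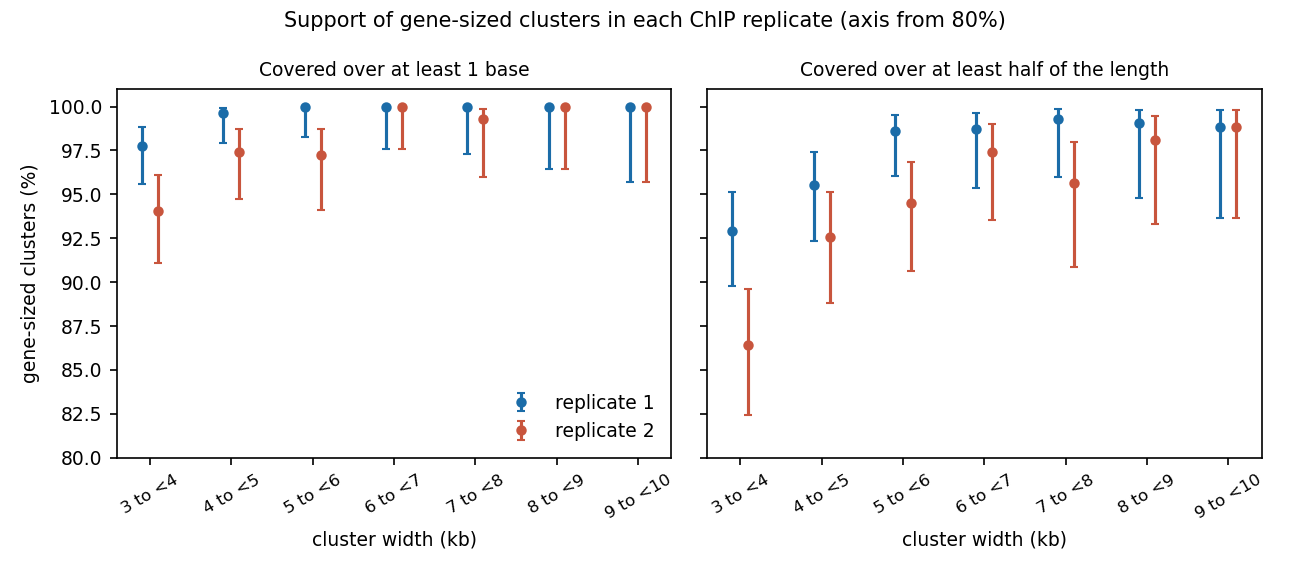
Share of gene-sized regions (y, percent, axis from 80) found in each ChIP replicate over at least 1 base (left) and over at least 50% of their length (right), by cluster width in kb (x), with Wilson 95% intervals that cover counting error only. The lowest points are the 3 to under 4 kb regions, at 97.7% and 94.1% for 1 base.

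All 46 isolated clusters of the same widths and arms were found in both replicates (Wilson lower bound 92.3%). The difference in this share, neighboured minus isolated, was -0.68 percentage points in replicate 1 and -2.65 in replicate 2. Its mean was -1.66 ± 1.39 (SD, n = 2; two-sided exact permutation test over the pair of replicates, p = 0.5, the lowest value possible). In bases covered, the neighboured regions had 91.2% against 91.9% in replicate 1 and 86.8% against 86.9% in replicate 2 (mean difference -0.37 ± 0.48 percentage points, SD, n = 2, exact permutation p = 0.5). In bases covered, the classes differed by less than the replicates did. The other measures changed sign between the replicates. At least 50% of the length was covered in 96.6% of neighboured and 95.7% of isolated clusters in replicate 1, and in 93.0% and 95.7% in replicate 2 (mean difference -0.87 ± 2.57 percentage points, SD, n = 2, exact permutation p = 1). The whole length was covered in 11.9% against 23.9% in replicate 1 and 7.26% against 2.17% in replicate 2 (mean difference -3.47 ± 12.1 percentage points, SD, n = 2, exact permutation p = 1). With replicate clusters at or above the median score, the difference in the share found was -6.27 ± 2.80 percentage points (SD, n = 2). Median width was 4882 bp in the isolated clusters and median score 0.93, beside 5177 bp and 0.92.

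The spacing under 20 kb that chose the regions was read again in each replicate list. Regions and isolated clusters were split by this distance in a list that may share reads with the replicates. Their contrast below restates that rule and is no independent evidence. Read outward from the replicate clusters on a region, a neighbour under 20 kb, or a replicate cluster that ran on into a neighbour, was found for 1301 of 1313 regions in replicate 1 (99.1%) and 1255 of 1287 in replicate 2 (97.5%). Their mean was 98.3% ± 1.11 (SD, n = 2). Of the 46 isolated clusters it was found for 1 in replicate 1 (2.17%) and 0 in replicate 2 (Wilson upper bound 7.71%). The regions without a neighbour numbered 12 in replicate 1 and 32 in replicate 2, and 7 were without one in both. Of these, 11 of the 12 and 29 of the 32 were among the 361 regions whose neighbours were all narrow. Narrow neighboured clusters of these arms were found at 70.2% in replicate 1 and 45.4% in replicate 2, against 100% of broad ones in both. The distances were wider in the replicates. Where no cluster ran on into a neighbour, the median distance outward was 1330 bp in replicate 1 and 1882 bp in replicate 2, while the same regions had whole-series medians of 773 and 899 bp.

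Most regions matched a single cluster in each replicate, with edges closer to those of the region in replicate 1 than in replicate 2. In replicate 1, 1110 regions (84.0%) matched a single cluster that touched no other whole-series cluster, and in replicate 2 it was 1050 (79.4%). The mean was 81.7% ± 3.21 (SD, n = 2). The first base of these matches lay a median of 50 bp from that of the region in replicate 1 and 138 bp in replicate 2, and the last base 48 and 118.5 bp. Replicate clusters were the narrower, in 72.2% of matches in replicate 1 and 88.2% in replicate 2, with median width ratios of 0.986 and 0.939. The 5th percentiles of the ratio were 0.554 and 0.521. Both edges were within 500 bp in 888 of the 1110 matches of replicate 1 and 665 of the 1050 of replicate 2. The rank of scores was kept, with Spearman correlations of 0.97 and 0.96 between the region and its match, a description of lists that may share reads.

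The replicates departed from this outline in opposite ways. Regions were split into at least 2 clusters more often in replicate 1, 179 (13.5%, Wilson 95% interval 11.8 to 15.5) against 109 (8.25%, 6.88 to 9.85) in replicate 2. Of all 5971 clusters of the whole-series list, 754 were split in replicate 1 and 484 in replicate 2, so this contrast was not particular to the regions. Regions were joined to a neighbouring whole-series cluster more often in replicate 2, 145 (11.0%, 9.40 to 12.8) against 31 (2.34%, 1.66 to 3.31). These intervals cover counting error only, and each replicate is a single sample. The share of all clusters that were joined to a neighbour was not computed. The replicate 2 cluster on 2L from 17373165 to 17401796, 28.6 kb wide, reached 4 gene-sized regions. On 3R from 17867197 to 17892984 a replicate 2 cluster of 25.8 kb reached 3 regions and a further cluster, and on 3L from 10345491 to 10366879 one of 21.4 kb reached 3. No replicate 1 cluster reached more than 2 regions on these arms. The widest of those with 2 were on 3L from 8176132 to 8188006 and from 7346840 to 7357804, and on 2L from 13385783 to 13395898, between 10.1 and 11.9 kb.

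Joining in the replicates was a matter of short gaps. Beside the regions lay 1834 gaps of under 20 kb, and another 2 pairs of clusters touched. Among gaps of under 500 bp with a cluster found on each flank, 26 of 403 were bridged by a single cluster in replicate 1 (6.45%, Wilson 95% interval 4.44 to 9.29) and 91 of 358 in replicate 2 (25.4%, 21.2 to 30.2). From 500 bp to under 1 kb it was 0 of 232 (upper bound 1.63%) and 20 of 204 (9.80%). From 1 to under 2 kb it was 0 of 237 and 4 of 196 (2.04%). No gap of 2 kb or more was bridged, among 674 with both flanks found in replicate 1 and 550 in replicate 2. Of the 1213 gaps with flanks found in both replicates, 1103 (90.9%) were left uncovered at least in part by both, 96 were bridged in replicate 2 alone, 13 in replicate 1 alone and 1 in both. Gaps that were not bridged were mostly wider than in the whole-series list, in 72.0% of cases in replicate 1 and 82.6% in replicate 2, by medians of 76 and 264 bp.

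**Figure D5:**
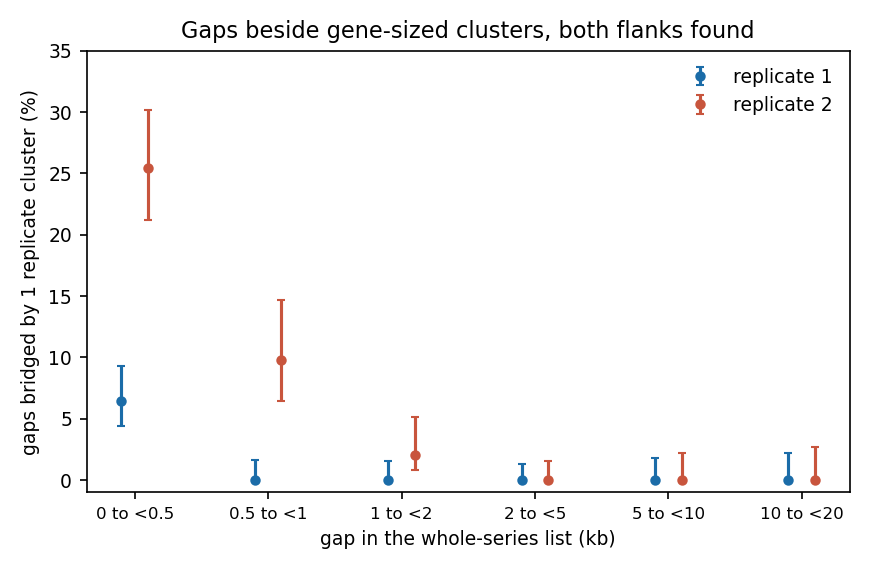
Share of the gaps beside gene-sized regions that were bridged by a single replicate cluster (y, percent, with Wilson 95% intervals for counting error), by the width of the gap in the whole-series list (x, kb), among gaps with a cluster found on each flank. Under 500 bp the share was 6.45% in replicate 1 and 25.4% in replicate 2, and from 2 kb upward it was 0 in both.

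The highest-scored regions were covered over most of their length in both replicates, by clusters of similar width. The highest of 3L, from 17545450 to 17551616, scored 2.41 over 6167 bp, the third of the whole-series list, in a run of 15 clusters. Replicate 1 covered 98.8% of it with 1 cluster of 6125 bp, and replicate 2 covered 95.2% with 1 cluster of 5934 bp. The other 2 of this arm were from 15228044 to 15236114, in a run of 3 clusters with a neighbour 61 bp away, and from 21278526 to 21283396, with a neighbour 7 bp away. Each was covered by a single cluster in both replicates, over 95.1% and 100% of the first and 98.3% and 98.7% of the second. Whether those clusters also reached the close neighbour was not read here. On the first, 8071 bp wide, the cluster was 7672 bp wide in replicate 1 and 8172 bp in replicate 2.

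On 3R the highest were from 5630336 to 5635658, with a score of 2.38, from 5459688 to 5464056, with 2.33, and from 12067852 to 12075652, with 2.21. The first 2 stood at the edge of their runs, with 63935 and 38843 bp without a cluster on the far side. The second held the highest score of the whole replicate 1 list, 2.72, and a score of 1.95 in replicate 2, above or level with 99.0% of that list. Replicate 1 covered between 98.3% and 99.5% of the 3 regions and replicate 2 between 99.2% and 99.8%.

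On 2L the highest were from 10839080 to 10843246, from 2231338 to 2237688 and from 13162988 to 13169360, with scores of 2.09, 2.05 and 2.03. The first stood at the edge of a run of 3 clusters, with 39687 bp without a cluster before it. The second stood at the edge of a run of 9, 279 bp after a broad cluster and with 118063 bp without a cluster behind it. Their covered shares were 98.0% and 99.1% for the first, 98.8% and 98.9% for the second, and 98.1% and 97.9% for the third. All 9 regions of these 3 arms met 1 cluster in each replicate. That was common at high scores, since 326 of the 331 regions in the highest quartile of score did so in replicate 1 and 323 in replicate 2. In that quartile 98.0% of the bases were covered in replicate 1 and 94.5% in replicate 2. Of these 9, 4 were at the edge of a run, with a neighbour on a single side, and 5 had neighbours on both sides.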

How the data were processed

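Larval chromatin was crosslinked, sonicated and precipitated, per the labels' protocols. Per the submitters' processing notes, Bowtie 0.12.7 aligned the reads. The authors deposited for each cluster a first and last base on FlyBase release 5 and a signed score, per the file headers and values. The cluster caller, its threshold, the scale of the score and the way the replicates were combined stand in none of the sources used here. The lists hold no counts, so the depth behind a cluster is unknown.

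Enriched clusters were read from the list of the whole series and from each ChIP replicate list. Distances are bases between cluster edges, runs join clusters at gaps under 20 kb, and a region was found when it shared at least 1 base with a replicate cluster. Wilson 95% intervals treat clusters as independent and cover counting error only. Whether each replicate was a separate collection of larvae is not in the labels, and SDs may be technical. Comparisons between classes used the difference within each replicate and a two-sided exact permutation test. The functions were tested on simulated lists. Alternatives were other distances, overlaps, score limits, joined clusters and windows, each arm or replicate left out, and the replicate lists.

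The regions and the measures were chosen with earlier results of these data known. Regions named were the 3 highest-scored of each arm, the run with the most regions and the fullest and emptiest window of each arm, the regions in neither replicate, the 3 clusters of each replicate over the most regions, and those next to each limit. The gene table at hand is of Release 6, so positions were matched to no gene or sequence. The scripts ran on Python 3.11.15, scipy 1.17.1, numpy 2.4.6, matplotlib 3.10.9 and pandas 2.3.3.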

Additional observations from a re-analysis of the deposited data

How the results depend on the processing

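Of the values recomputed, 30 stayed within their limits, 13 moved beyond them and 0 reversed. Counts were allowed a wide fixed factor, so the fall from 1322 to 933 regions with neighbours on both sides stayed within it. Shares were held to the Wilson interval or the SD. The difference between neighboured and isolated clusters was read by sign only, so -6.27 against -1.66 was counted as unmoved. The tally is therefore no measure of stability. The 1322 regions became 811 when clusters under 1 kb apart were joined first and 845 with clusters at or above the median score. The share with neighbours on both sides, 70.6%, was 59.9% at a distance of 10 kb, 60.4% with joined clusters, 46.9% at or above the median score and 64.6% in the replicate 2 list. Runs with regions numbered 426, and 264 without 3R. The mean share found, 98.3%, was 94.8% when at least 50% of the region had to be covered, 88.1% for 50% reciprocal overlap and 61.1% with replicate clusters at or above their median score. Without a replicate it ran from 97.4% to 99.3%. With joined clusters, 89.1% of regions matched one to one and 4.44% were split, against 81.7% and 10.9%, and the mean share joined to a neighbour fell from 6.66% to 2.47%. The fullest 25% of windows held 40.6% of the regions with 500 kb windows against 34.9%. The difference between neighboured and isolated clusters was -1.66, and -6.27 ± 2.80 with replicate clusters at or above the median score and -2.97 ± 2.16 for widths of 3 to under 5 kb (percentage points, SD, n = 2). It ran from -2.65 to -0.68 without a replicate, and the share joined to a neighbour from 2.34% to 11.0%, the one-to-one share from 79.4% to 84.0% and the split share from 8.25% to 13.5%. Each of 2 replicates lies within their SD of the mean by construction, so these values are no sign of stability. The cause of the other changes was not tested, apart from the smaller set of clusters or arms, which the alternative itself sets. No paired analysis was possible because the groups that share replicate numbers are ChIP and input, and no input values are analysed here; neighboured and isolated clusters were compared within each replicate.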

Other observations

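Clusters that the authors named depleted, those with a score below 0, stood in 3 of the gene-sized regions, all in replicate 1, whose list had 11 of them on these arms. The list of replicate 2 had 2 and the whole-series list 8 on these arms, and none of these had a base in a region. The 3 regions were chosen after their values were seen, and depleted clusters inside other enriched clusters were not counted. On 3L from 15825136 to 15830912 the depleted cluster took the end of the region, from 15829069 to 15830910, with a score of -0.0013. Replicate 1 covered 67.3% of that region and replicate 2 covered 94.6%. On 3R from 8806134 to 8810804 the depleted cluster, from 8809194 to 8810674, scored -0.026, and the region was covered over 43.3% in replicate 1 and 99.9% in replicate 2. On 3R from 9224188 to 9228114 it lay from 9226411 to 9228042, scored -0.074, and the region was covered over 52.3% and 96.8%. In all 3, replicate 2 clusters covered nearly the whole region while replicate 1 had a depleted call over its last part.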
